A study of Mus musculus with 9 samples.

Results

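The MYC, MAX and MondoA network was examined through 10 genes, chosen by name: Myc, Max, Mnt, Mxd1, Mxd4, Mxi1, Mlx, Mlxip, Txnip and Arrdc4. Each was measured by 1 of the 22206 probe sets on the array, and 10 of 10 were found. The cells were E0771, a mouse mammary tumour line, carrying 1 of 3 short hairpin RNAs that were delivered by lentivirus and selected with puromycin. The groups were shPC25 (n = 3 arrays) and shPC28 (n = 3), both hairpins against Pcx, and the scramble control scram (n = 3). No treatment was given, and the culture medium held glucose at 5.6 mM, glutamine at 4 mM and FBS at 10%. Whether each group was a pool of transduced cells or 1 clone is not stated. No label says that replicate arrays stem from separate cultures, and the p-values therefore reflect the spread among these arrays, possibly a technical one.

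The members are transcription factors that meet on a short DNA word, the E-box, and targets of those factors. MYC pairs with MAX and activates genes of growth and biosynthesis. MNT and the MAD proteins, encoded by Mxd1, Mxd4 and Mxi1, compete for MAX and recruit corepressors to the same sites. MLX is the partner of MondoA, the product of Mlxip, which moves to the nucleus when glucose 6-phosphate accumulates and switches on Txnip and Arrdc4. Both of these targets encode alpha-arrestins that restrain glucose uptake, so the pathway acts as negative feedback on glucose entry. MLX also dimerises with MNT and with the MXD4 protein, which joins the MAX and MLX arms. Pyruvate carboxylase, the product of Pcx, converts pyruvate to oxaloacetate in mitochondria.

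The E-box itself is printed here because it is the word that the network's proteins read, and because several members carry it in their own promoters. Windows of 300 bases, 250 before and 50 after each annotated start, were read from RefSeq (mouse build GRCm38.p6) for 9 of the 10 members: Max, Mnt, Mxd1, Mxd4, Mxi1, Mlx, Mlxip, Txnip and Arrdc4. The canonical E-box CACGTG, which reads the same on both strands, lay in the windows of 5 of these 9 genes, and in 8.09% of all 27025 genes with a window. The stretches are given 5′ to 3′ on the gene's own strand, with the E-box in capitals and 12 bases on either side.
Max: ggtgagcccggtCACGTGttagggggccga
Mnt: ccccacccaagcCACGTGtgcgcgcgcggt
Mxd4: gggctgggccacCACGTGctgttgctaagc
Mlx: ggtgggttggatCACGTGactgagcctcgc
Arrdc4: aaaggtcctgtgCACGTGcactatggtgtc
The Max stretch lies at chr12:76962234-76962263 on the minus strand. Its E-box spans the annotated start of its window, from base -3 to base 3. The others lie further upstream of the start of their window. The E-box begins at base -40 in Mlx (chr11:101087238-101087267, plus strand) and at base -123 in Mnt (chr11:74830789-74830818, plus strand). In Arrdc4 it begins at base -193 (chr7:68749414-68749443, minus strand) and in Mxd4 at base -219 (chr5:34187912-34187941, minus strand). The start of a window need not be the outer edge of the gene coordinates given below. The Max and Mlx stretches lie inside those coordinates, and the Mnt stretch overlaps their edge. A match is a description of letters and not a site.

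Txnip carried no CACGTG in its window but held the variant word CACGAG at bases -85 and -74, with 5 bases between the copies. The carbohydrate response element, to which MondoA or ChREBP binds together with MLX, is a pair of E-box-like words with that spacing. Read on either strand, CACGAG lay in 7.47% of genes with a window, Mxd1 (base -219) and Txnip among them. The spacing was chosen after the Txnip window had been read. A pair of CACGAG words 5 bases apart, both in the same direction, lay in 1 of 32851 windows, the one of Txnip. That search used the exact words, direction and spacing found in the Txnip window, so this window had to match. Pairs of other E-box-like words were not counted, so the count does not measure how rare the response element is. The 250 bases upstream of the Txnip start (chr3:96557707-96557956, plus strand) are shown with both words in capitals.
Txnip: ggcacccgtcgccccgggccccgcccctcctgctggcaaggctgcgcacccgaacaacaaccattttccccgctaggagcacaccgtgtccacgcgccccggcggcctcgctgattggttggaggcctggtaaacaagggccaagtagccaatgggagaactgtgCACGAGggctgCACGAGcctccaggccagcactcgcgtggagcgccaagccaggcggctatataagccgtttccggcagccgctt
The windows of Mxi1 (3 annotated starts) and Mlxip held neither word.

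**Figure D1:**
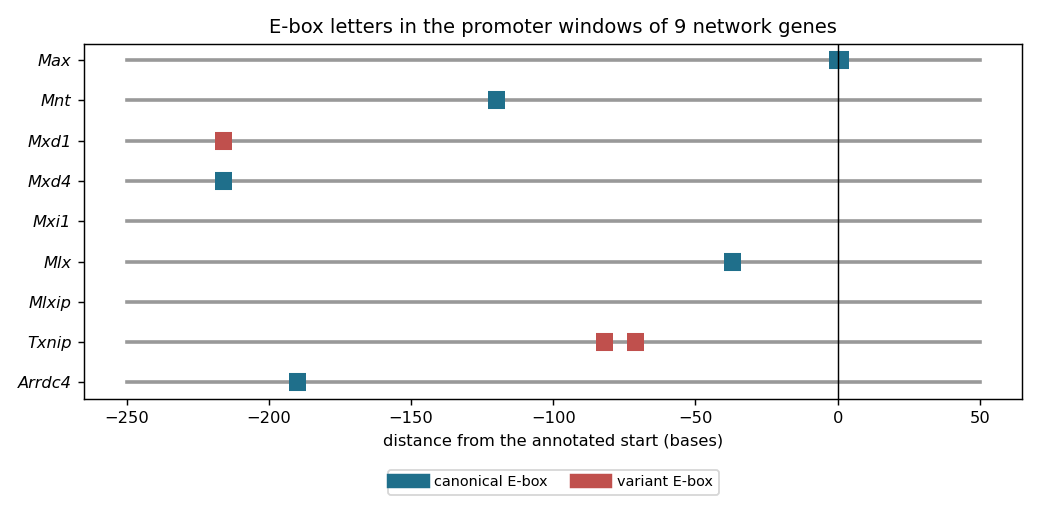
Positions of E-box words in the promoter windows of 9 network genes. The horizontal axis is the distance in bases from the annotated start, each grey line is the window of 250 bases before and 50 after it, blue squares mark CACGTG and red squares CACGAG. The blue words lie in Max, Mnt, Mxd4, Mlx and Arrdc4, and the red pair lies in Txnip.

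Both hairpins lowered their target, shPC25 further than shPC28. Pcx (chr19:4510472-4621752) had a log2 signal of 5.64, 5.43 and 5.53 with shPC25 and of 7.01, 6.85 and 6.57 with shPC28, against 9.18, 8.84 and 9.20 in scram. The log2 change was -3.54 (11.6-fold lower) with shPC25 and -2.26 (4.80-fold lower) with shPC28, and Pcx was higher with shPC28 than with shPC25 by 1.28 (adjusted p = 0.000307). Of the members, 3 of 10 passed an adjusted p of 0.05 with shPC25 and 8 of 10 with shPC28. Over all probe sets the shares were 20.4% with shPC25 (4541 of 22206) and 41.7% with shPC28 (9265 of 22206). These shares include probe sets near background, whereas every member but Arrdc4 was above it. With the lowest 50% of the 22206 probe sets left out, 5244 of the rest passed with shPC25 and 8216 with shPC28. The shares were thus larger at higher signal, and the members' 3 of 10 and 8 of 10 are to be read against them. The same limit applies to the list counts below. In pooled RNA, fewer cells expressing a gene and less of its RNA in each cell cannot be told apart.

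As a check of the cells, Epcam, Krt8, Krt18 and Cdh1 of 6 epithelial markers were above background in every group, background being the 95th percentile of 1091 olfactory receptor probe sets on the same array. The summed epithelial signal, on a linear scale, was 17540 to 18754 with shPC25 and 21740 to 23488 with shPC28, against 13553 to 14317 in scram. The sum is mostly Krt8, and the markers did not move together: 1 was higher and 1 lower with shPC25, and 2 were higher and 2 lower with shPC28. Krt8 rose by 0.38 with shPC25 and by 0.72 with shPC28, and Krt14, above background in scram alone, fell by 0.96 with shPC25 and by 1.24 with shPC28. With shPC28, Cdh1 also rose (0.61, adjusted p = 0.041) and Epcam fell (-0.74, adjusted p = 0.0464). These levels moved with the groups, and their part in the changes of the members was not tested. The 4 macrophage markers measured were near background in every group, with sums of 34 to 39 in shPC25, 30 to 35 in shPC28 and 29 to 37 in scram. Of the lymphocyte, fibroblast and endothelial markers, 4 measured of each, Cd4, Col1a1 and Pecam1 were above background in every group, and Cd79a (shPC25 and scram), Lum and Kdr (scram) in some. Their summed signals stayed at or under 207 in shPC25, 198 in shPC28 and 194 in scram. Correlations between arrays of 1 group, across probe sets, were 0.995 to 0.998.

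Myc (chr15:61985341-61990361) differed in direction between the hairpins. Its log2 signal was 16.99, 17.08 and 16.93 with shPC25 and 16.12, 16.26 and 16.18 with shPC28, against 16.79, 16.58 and 16.60 in scram. All shPC25 arrays were above all scram arrays and all shPC28 arrays were below them. With shPC28, Myc fell by 0.47 ± 0.099 on the log2 scale (SE, 1.39-fold lower, adjusted p = 0.00427). With shPC25 it rose by 0.34 ± 0.099 (1.27-fold higher, adjusted p = 0.0394), a call that was lost in 10 of 18 alternative analyses. Among these were the fits without scram replicate 2 (0.31, adjusted p = 0.126), scram replicate 3 (0.32, adjusted p = 0.123), shPC28 replicate 3 (adjusted p = 0.0539) or any single shPC25 array (0.30 to 0.38, adjusted p = 0.0634 to 0.117). Myc was lower with shPC28 than with shPC25, the difference being -0.81 ± 0.099 (1.76-fold, adjusted p = 0.000418), and this held in 18 of 18 alternatives. The Myc signal lay near the top of the measured range, which ended at 18.64.

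Max (chr12:76937269-76962323), the shared partner of MYC, MNT and the MAD proteins, was lower with shPC28 than in either other group. The log2 signal was 13.87, 13.90 and 13.73 with shPC25 and 13.19, 12.94 and 12.92 with shPC28, against 13.65, 13.67 and 13.85 in scram. The shPC25 and scram arrays overlapped, and no shPC28 array reached either. Max fell by 0.71 ± 0.11 (SE, 1.63-fold lower, adjusted p = 0.000829) with shPC28 against scram. The difference between shPC28 and shPC25 was -0.82 ± 0.11 (adjusted p = 0.000815), and both calls held in 18 of 18 alternatives. With shPC25 the change was 0.11 (95% interval -0.15 to 0.37, adjusted p = 0.555).

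The antagonists of MYC did not move as 1 block. Mxd1 (chr6:86647044-86669234), which encodes MAD1, rose with both hairpins. Its log2 signal was 8.64, 8.88 and 8.51 with shPC25 and 7.82, 8.70 and 8.57 with shPC28, against 7.43, 7.45 and 7.07 in scram. Every hairpin array lay above every scram array, although shPC28 replicate 1 was close to them. Mxd1 rose by 1.36 ± 0.23 (SE, 2.57-fold, adjusted p = 0.00382) with shPC25 and by 1.05 ± 0.23 (2.07-fold, adjusted p = 0.00526) with shPC28. Both calls held in 18 of 18 alternatives, and the difference between the hairpins was -0.31 (95% interval -0.83 to 0.21, adjusted p = 0.365).

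Mnt (chr11:74830806-74845725), a broadly expressed antagonist that pairs with MAX and MLX, was lower with both hairpins. The log2 signal was 6.96, 7.57 and 7.35 with shPC25 and 7.20, 6.76 and 7.40 with shPC28, against 8.04, 8.15 and 8.55 in scram. No hairpin array reached the scram arrays. Mnt fell by 0.95 ± 0.22 (SE, 1.94-fold lower, adjusted p = 0.0152) with shPC25 and by 1.13 ± 0.22 (2.18-fold lower, adjusted p = 0.00265) with shPC28. The difference between the hairpins was -0.17 (95% interval -0.67 to 0.32, adjusted p = 0.613). With shPC25 the call ended without scram replicate 3 (-0.80, adjusted p = 0.0574) and without shPC25 replicate 1 (-0.79, adjusted p = 0.0514), and with shPC28 it ended under quantile normalization (-0.55, adjusted p = 0.078).

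The remaining MAD genes had smaller changes. Mxi1 (chr19:53310128-53373293) had a log2 signal of 11.32, 11.20 and 11.53 with shPC25 and 11.03, 11.05 and 11.06 with shPC28, against 11.46, 11.39 and 11.50 in scram. The shPC28 arrays lay within 0.03 of each other and below all others. Mxi1 fell by 0.40 ± 0.10 (SE, 1.32-fold lower, adjusted p = 0.0126) with shPC28, a call lost under quantile normalization (-0.24, adjusted p = 0.0881) and median centring (-0.30, adjusted p = 0.0653). With shPC25 the change was -0.10 (adjusted p = 0.564). Mxd4 (chr5:34176580-34187710) had 6.61, 6.07 and 6.60 with shPC25 and 6.99, 6.10 and 7.03 with shPC28, against 6.69, 6.57 and 6.70 in scram. The groups overlapped, and the changes were -0.23 (95% interval -0.80 to 0.34) with shPC25 and 0.05 (-0.52 to 0.62) with shPC28.

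The MondoA arm was split between its partners in shPC28 cells. Mlx (chr11:101086707-101092207), the partner subunit, had a log2 signal of 13.05, 13.13 and 13.09 with shPC25 and 13.44, 13.21 and 13.40 with shPC28, against 13.04, 13.04 and 12.97 in scram. Mlx rose by 0.33 ± 0.095 (SE, 1.26-fold, adjusted p = 0.0195) with shPC28. This call was lost in 5 of 18 alternatives, among them centring on olfactory receptor probe sets (0.13, adjusted p = 0.324) and the fits without scram replicate 3 (adjusted p = 0.0651), shPC28 replicate 1 (adjusted p = 0.0625) or shPC28 replicate 3 (adjusted p = 0.0577). With shPC25 the arrays did not overlap with scram, yet the change was 0.07 (adjusted p = 0.648).

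Mlxip (chr5:123394521-123457932), which encodes the glucose-responsive subunit MondoA, had a log2 signal of 9.62, 9.51 and 9.46 with shPC25 and 9.31, 9.03 and 8.80 with shPC28, against 9.47, 9.76 and 9.76 in scram. All shPC28 arrays were below all others, while shPC25 and scram overlapped. Mlxip fell by 0.62 ± 0.15 (SE, 1.53-fold lower, adjusted p = 0.00795) with shPC28, a call lost under quantile normalization (-0.22, adjusted p = 0.287). The change with shPC25 was -0.13 (adjusted p = 0.584). Mlxip was lower with shPC28 than with shPC25 (-0.48 ± 0.15, adjusted p = 0.0382), a call lost in 10 of 18 alternatives. The adjusted p was 0.359 under quantile normalization and 0.0535 to 0.111 in the fits that each left out scram replicate 2 or 3, any single shPC25 array, or shPC28 replicate 2 or 3.

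Txnip (chr3:96557957-96561857), the thioredoxin-interacting alpha-arrestin and a standard readout of MondoA, had the largest drop among the members with shPC28. Its log2 signal was 6.36, 6.37 and 7.10 with shPC25 and 5.31, 5.86 and 5.27 with shPC28, against 7.26, 7.55 and 6.51 in scram. The shPC28 arrays were the lowest of all. One shPC25 array, replicate 3, lay within the scram range, and scram replicate 3 lay within that of shPC25. Txnip fell by 1.63 ± 0.31 (SE, 3.09-fold lower, adjusted p = 0.00221) with shPC28, which held in 18 of 18 alternatives. With shPC25 the change was -0.50 (95% interval -1.19 to 0.20, adjusted p = 0.305). Txnip was lower with shPC28 than with shPC25 (-1.13 ± 0.31, 2.19-fold, adjusted p = 0.024), a call lost without shPC25 replicate 3 (-0.89, adjusted p = 0.0786), shPC28 replicate 1 (adjusted p = 0.07) or shPC28 replicate 3 (adjusted p = 0.073).

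Arrdc4 (chr7:68736994-68749238), the other MondoA target in the network, gave no usable signal. Its log2 values were 2.32, 2.46 and 2.41 with shPC25 and 2.33, 2.17 and 2.59 with shPC28, against 2.57, 2.65 and 2.09 in scram. All 9 values lay below the background level of their own array, so the changes of -0.04 with shPC25 and -0.07 with shPC28 are of background, and Txnip was the only one of the pair that could be read.

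Counted together, the members changed in both directions with shPC25 and mostly downward with shPC28. With shPC25, 2 of 10 rose (Myc and Mxd1), where 9.19% of all probe sets did, and 1 fell (Mnt), where 11.3% did. The arrays of shPC25 and scram did not overlap for 4 of 10 members and for 38.9% of all probe sets. The median change of the members was -0.07, against 0.04 for all probe sets. Among probe sets left after the lowest 50% were dropped, 2483 were higher and 2761 lower with shPC25, and the median was -0.0033.

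With shPC28, 2 of 10 rose (Mxd1 and Mlx), where 21.2% of all probe sets did, and 6 fell (Myc, Max, Mnt, Mxi1, Mlxip and Txnip), where 20.5% did. The arrays of shPC28 and scram did not overlap for 8 of 10 members and for 51.1% of all probe sets, and the median change was -0.44 against 0.10. With the lowest 50% of probe sets left out, 4347 of the rest were lower and 3869 higher with shPC28, and their median was -0.03. Under quantile normalization 5 of 10 members passed. Both comparisons used the same scram arrays.

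The hairpins were also compared directly. Relative to shPC25, 4 of 10 members were lower with shPC28 (Myc, Max, Mlxip and Txnip), where 14.5% of all probe sets were, and 0 were higher, where 11.8% were. In either direction 26.2% of all probe sets passed. Arrays did not overlap for 6 of 10 members and for 39.5% of all probe sets, and the median difference was -0.31 against 0.04. Without the lowest 50% of probe sets, 3454 of the rest were lower and 2714 higher with shPC28, and their median difference was -0.03. Mxi1 (-0.30, adjusted p = 0.0624) and Mlx (0.26, adjusted p = 0.0757) did not overlap but missed the threshold.

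**Figure D2:**
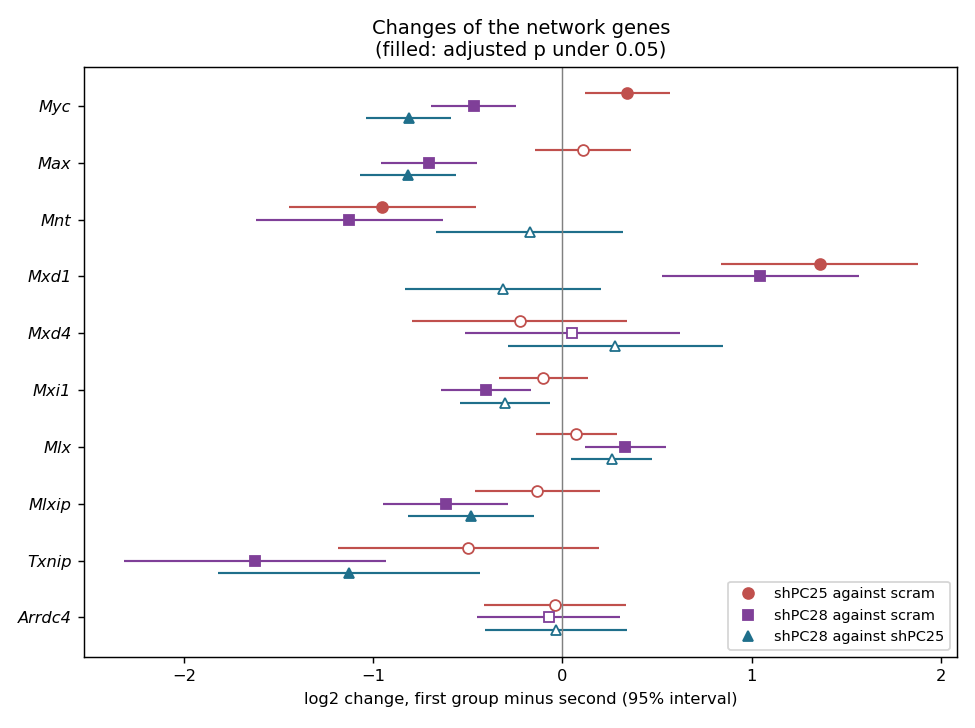
Log2 changes of the 10 network genes with their 95% intervals. Red circles are shPC25 against scram, purple squares shPC28 against scram and blue triangles shPC28 against shPC25, and filled symbols passed an adjusted p of 0.05. Myc lies at 0.34 with shPC25 and -0.47 with shPC28, while Mxd1 lies above 0 and Mnt below 0 with both.

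Other members of the same families were read from a list of 5 genes. Mxd3, which encodes the MAD3 protein linked to proliferating cells, had the largest changes of the list. Its log2 signal was 5.33, 4.89 and 5.29 with shPC25 and 4.93, 4.57 and 4.68 with shPC28, against 7.14, 7.14 and 7.27 in scram. Mxd3 fell by 2.01 with shPC25 (adjusted p = 0.000102) and by 2.46 with shPC28 (adjusted p = 2.56e-06), opposite in direction to Mxd1. Mga, a large MAX-dependent repressor, fell with shPC28 (-0.32, adjusted p = 0.0277), and had a change of -0.03 with shPC25. The shPC28 call was lost in 9 of 18 alternatives, including those without any single scram array, shPC28 replicate 1 or shPC28 replicate 3 (adjusted p = 0.0619 to 0.0896). Mycn, Mycl and Mlxipl, which encodes ChREBP, were near background in every group, and the Mycn difference that passed with shPC28 (0.46, adjusted p = 0.0169) is between background values.

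Among 9 other factors that bind E-boxes, shPC25 cells had 2 higher and 1 lower, and shPC28 cells had 3 higher and 3 lower. Of all probe sets, 20.4% changed with shPC25 and 41.7% with shPC28. Usf1, an upstream stimulatory factor, rose by 0.66 with shPC25 and by 1.12 with shPC28. Mitf, of the lysosomal and melanocyte family, had a log2 signal of 9.74, 10.06 and 10.07 with shPC25 and 8.56, 8.30 and 8.28 with shPC28, against 9.95, 10.05 and 9.69 in scram. Its log2 difference from scram was 0.06 with shPC25 (adjusted p = 0.817 in limma), it fell by 1.52 with shPC28, and the difference between the hairpins was -1.58 (adjusted p = 9.05e-05). Clock, a circadian activator, fell by 0.39 with shPC25 and by 0.73 with shPC28. The shPC25 call was lost in 5 of 18 alternatives, including those without scram replicate 2 or 3 or shPC25 replicate 1 (adjusted p = 0.054 to 0.0737).

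Genes whose products act with MYC or the MAD proteins on chromatin were described next. Among 11 measured MYC cofactors, shPC25 cells had 3 higher and 1 lower, and shPC28 cells 8 higher and 1 lower, with medians of 0.23 in shPC25 and 0.46 in shPC28. Of all probe sets, 9.19% were higher and 11.3% lower with shPC25, and 21.2% higher and 20.5% lower with shPC28. The cofactors higher with shPC25 numbered 1 to 6 over the 18 alternatives, 5 of them under median centring. The one that fell was Hcfc1, a scaffold of chromatin complexes that binds MYC, with 11.84, 11.70 and 11.58 in shPC25 and 9.77, 9.96 and 9.74 in shPC28, against 12.23, 12.40 and 12.18 in scram. Its changes were -0.56 with shPC25 and -2.45 with shPC28. The acetyltransferase gene Kat2a rose by 0.45 with shPC25 and 0.50 with shPC28, and Kat5 rose by 0.64 with shPC28. With shPC25 the change of Kat5 was 0.26 (adjusted p = 0.0725), which passed in 5 of 18 alternatives. Kat5 differed between the hairpins by 0.38 (adjusted p = 0.0139), a call lost with olfactory receptor centring (0.25, adjusted p = 0.0885) and with a replicate block (adjusted p = 0.0503). Centring on olfactory receptor probe sets left 4 cofactors higher with shPC28.

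The 8 measured corepressor genes had 2 higher and 1 lower with shPC25, and 4 higher and 2 lower with shPC28, where 20.4% of all probe sets changed with shPC25 and 41.7% with shPC28. The count higher with shPC25 was 1 to 3 over the alternatives. The scaffold paralogs moved in opposite directions. Sin3a fell by 0.93 with shPC25 and by 1.47 with shPC28, while Sin3b rose by 0.43 with shPC25 and by 0.77 with shPC28. The Sin3b call with shPC25 was lost in 8 of 18 alternatives, including each that left out 1 scram or 1 shPC25 array (adjusted p = 0.059 to 0.0907). Sap30, a subunit of the same complex, rose by 0.55 with shPC25 and 0.90 with shPC28.

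Genes that set the stability of the MYC protein were counted as a list. Of 14 measured, 5 fell and 2 rose with shPC25 (median -0.18), and 9 fell and 2 rose with shPC28 (median -0.52). Over all probe sets, 11.3% were lower and 9.19% higher with shPC25, and 20.5% lower and 21.2% higher with shPC28. Skp2, a ubiquitin ligase subunit that targets MYC among other proteins, had a log2 signal of 8.84, 9.14 and 8.97 with shPC25 and 9.03, 9.44 and 9.14 with shPC28, against 12.45, 12.56 and 12.53 in scram. It fell by 3.53 with shPC25 (adjusted p = 8.64e-06) and by 3.31 with shPC28 (adjusted p = 5.52e-07). Usp7, a deubiquitinase, fell by 0.68 with shPC25 and by 1.86 with shPC28, and Pim1, a kinase that phosphorylates MYC, rose by 1.89 with shPC25 and by 2.42 with shPC28. Fbxw7, the ligase subunit that marks phosphorylated MYC, was named after its values were seen and had changes of -1.35 with shPC25 (adjusted p = 0.0105) and -3.09 with shPC28 (adjusted p = 2.96e-05). The list holds genes that lower MYC protein and genes that raise it, and protein was not measured here.

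Targets of MYC were then counted. Of 66 measured genes that MYC activates, most of them in ribosome assembly and nucleotide synthesis, shPC25 cells had 14 higher and 7 lower, and shPC28 cells had 24 higher and 22 lower. The medians were 0.12 with shPC25 and 0.13 with shPC28, where all probe sets had 0.04 with shPC25 and 0.10 with shPC28, and 9.19% of them were higher and 11.3% lower with shPC25, and 21.2% higher and 20.5% lower with shPC28. The balance rested on the scaling. With olfactory receptor centring, 8 were higher and 9 lower in shPC25 cells and 14 higher and 28 lower in shPC28 cells, whereas median centring gave 24 and 5 with shPC25 and 30 and 19 with shPC28. Relative to shPC25, 10 were higher and 20 lower with shPC28, against 11.8% higher and 14.5% lower of all probe sets. The number higher rested on the setting as well, at 2 to 17 over the alternatives, with 2 higher and 23 lower under olfactory receptor centring and 8 higher and 20 lower under median centring.

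The lowest of these targets fell with both hairpins and further with shPC28. Dusp2, a phosphatase that acts on MAP kinases, had 7.27, 7.35 and 7.36 with shPC25 and 5.01, 5.32 and 4.96 with shPC28, against 8.89, 9.00 and 8.73 in scram, with changes of -1.55 with shPC25 and -3.78 with shPC28. Tfb2m, a mitochondrial transcription factor, changed by -1.57 with shPC25 and -2.58 with shPC28. Hk2, the hexokinase that traps glucose as glucose 6-phosphate, had a log2 signal of 10.63, 10.68 and 10.56 with shPC25 and 8.59, 8.82 and 8.22 with shPC28, against 11.21, 11.34 and 11.27 in scram. Its changes were -0.65 with shPC25 (adjusted p = 0.0139, and 0.0524 without scram replicate 2) and -2.73 with shPC28 (adjusted p = 1.58e-06), and the difference between shPC28 and shPC25 was -2.08. Among textbook targets picked outside the naming rule, Odc1 of polyamine synthesis changed by 0.13 with shPC25 and -0.01 with shPC28, and Ldha by 0.14 with shPC25 and 0.20 with shPC28, and neither passed. Ncl, which encodes nucleolin, changed by 0.22 with shPC25 and rose by 0.41 with shPC28 (adjusted p = 0.00675). Cad, of pyrimidine synthesis and also outside the rule, changed by -0.26 with shPC25 (adjusted p = 0.172) and -1.43 with shPC28 (adjusted p = 1.77e-05).

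Of 10 genes that MYC represses, 1 rose with each hairpin and 0 fell, where 20.4% of all probe sets changed with shPC25 and 41.7% with shPC28. It was Gadd45a, a growth arrest gene, with 13.14, 13.21 and 12.97 in shPC25 and 12.96, 12.78 and 12.98 in shPC28, against 11.93, 11.26 and 10.99 in scram (changes of 1.71 with shPC25 and 1.51 with shPC28). Ndrg2 had changes of 0.63 with shPC25 (adjusted p = 0.0845) and -0.38 with shPC28 (adjusted p = 0.218), which differed by -1.01 (adjusted p = 0.0102), a call lost under quantile normalization (-0.67, adjusted p = 0.0571). Ndrg1 had changes of -0.05 with shPC25 and -0.18 with shPC28. Cdkn1c, Cdkn2b, Cebpa and Thbs1 of this list were near background in every group, so a fall of these genes could not have been read.

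Targets assigned to the Mondo family, including its liver paralog ChREBP, were counted as a list of 12. With shPC25, 2 rose and 3 fell (median 0.02), and with shPC28, 3 rose and 6 fell (median -0.33). Of all probe sets, 20.4% changed with shPC25 and 41.7% with shPC28. Hk2, described above, belongs to it. Elovl6, a fatty acid elongase, had 12.48, 12.55 and 12.47 with shPC25 and 11.67, 11.80 and 11.71 with shPC28, against 13.36, 13.54 and 13.38 in scram, and fell by 0.93 with shPC25 and by 1.70 with shPC28. Khk, which encodes ketohexokinase of fructose metabolism, ran the other way, rising by 0.59 with shPC25 and by 1.49 with shPC28. So did Klf10, a gene of the list outside the naming rule. It rose by 1.54 with shPC25 (adjusted p = 0.00031 in limma) and by 1.16 with shPC28 (adjusted p = 0.00024).

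Of 6 alpha-arrestin genes, Txnip and Arrdc4 included, 1 rose and 1 fell with shPC25 and 2 fell with shPC28, beside the same shares of all probe sets. Arrdc2 fell by 1.12 with shPC25, a call lost without scram replicate 3 (adjusted p = 0.054) or shPC25 replicate 2 (adjusted p = 0.0508), and by 1.53 with shPC28. Arrdc3 rose by 0.60 with shPC25 and had a change of -0.03 with shPC28. The Arrdc3 call was lost in 6 of 18 alternatives, including those without scram replicate 2 or 3 or shPC25 replicate 1 or 2 (adjusted p = 0.0582 to 0.105). Arrdc1 had changes of 0.04 with shPC25 (adjusted p = 0.939) and 0.64 with shPC28 (adjusted p = 0.107), and Arrdc5 was near background in every group.

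A list of 12 genes for TXNIP partners and glucose entry had 1 higher and 2 lower with shPC25, and 2 higher and 6 lower with shPC28, where 20.4% of all probe sets changed with shPC25 and 41.7% with shPC28. Hk2, described above, is among the lower genes here too, so its fall also counts among the MYC and the Mondo targets. The count lower with shPC25 was 1 to 5 over the alternatives, and 4 under olfactory receptor centring. Txn2, the mitochondrial thioredoxin, rose by 0.70 with shPC25 and by 1.02 with shPC28, whereas Txn1, the cytosolic thioredoxin that TXNIP binds and a gene outside the naming rule, changed by -0.02 with shPC25 and 0.03 with shPC28. Ddit4, an inhibitor of mTORC1 signalling, had 12.28, 12.23 and 12.19 with shPC25 and 11.20, 11.32 and 11.04 with shPC28, against 13.16, 12.68 and 12.73 in scram, and fell by 0.62 with shPC25 and by 1.67 with shPC28. The glucose transporter gene Slc2a1, also outside the rule, changed by 0.07 with shPC25 (adjusted p = 0.802) and fell by 0.57 with shPC28 (adjusted p = 0.0121). Slc2a3, a further transporter gene outside the rule, changed by -0.32 with shPC25 (adjusted p = 0.064) and fell by 1.01 with shPC28 (adjusted p = 6.36e-05).

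**Figure D3:**
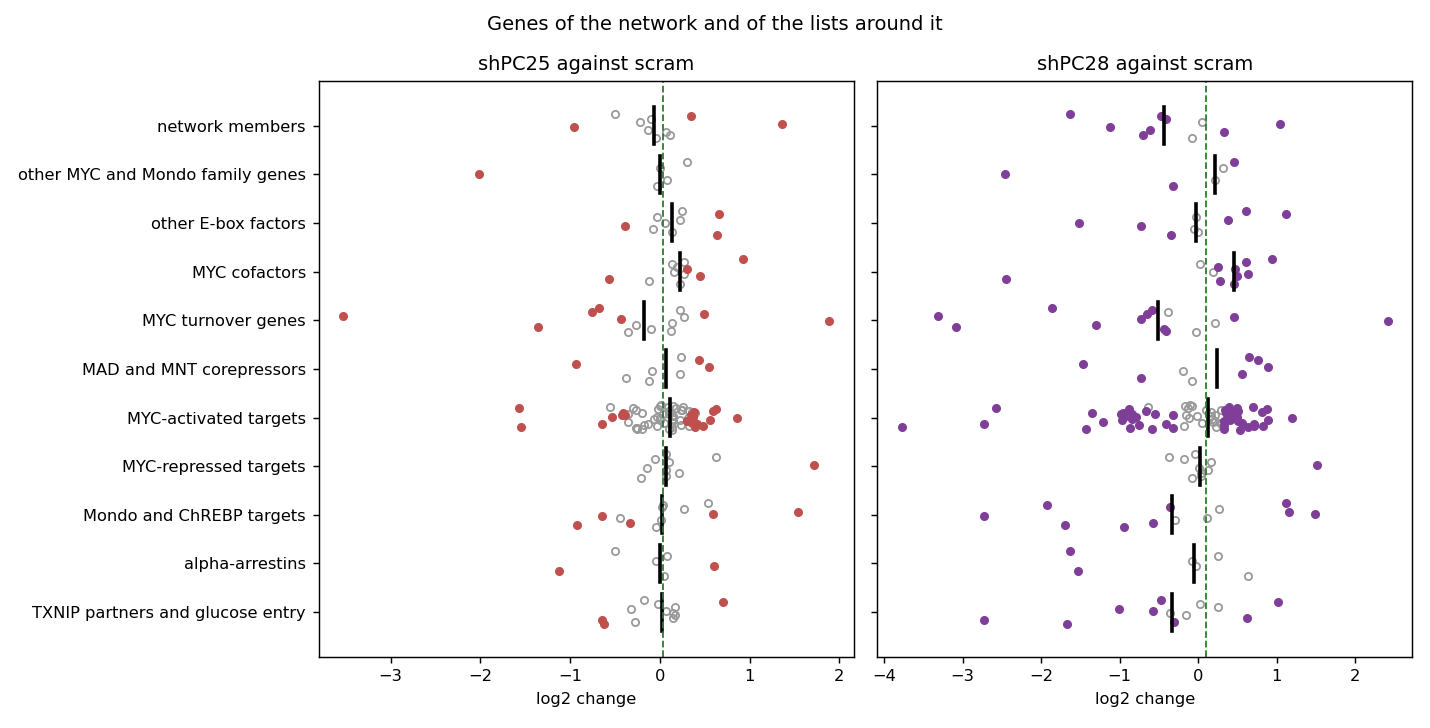
Log2 changes of the network members and of the gene lists around them, with shPC25 against scram on the left and shPC28 against scram on the right. Each point is 1 gene (filled where the adjusted p was under 0.05), the black bar is the list median and the dashed line the median of all probe sets, 0.04 with shPC25 and 0.10 with shPC28. The members' median lies at -0.07 with shPC25 and -0.44 with shPC28.

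Genes whose course over the 9 arrays was most like that of a member were found by the root mean square difference of centred log2 values, among 9711 probe sets above the median level. For Myc these were Dbt (0.0713), Samd8 (0.0774), Rnf2 (0.0904), Mef2d (0.0917) and Dusp4 (0.0925). All 5 were higher with shPC25 (0.22 to 0.49) and lower with shPC28 (-0.41 to -0.59), as Myc was, which follows from how they were picked. For Mxd1 they were Wdfy1 (0.242), Nfil3 (0.243), Atf6 (0.253), Cdh11 (0.256) and Rnf166 (0.272), and for Txnip they were Vps9d1 (0.216), Zfp236 (0.248), Tmem260 (0.256), Med17 (0.258) and Foxred2 (0.27). For Arrdc4, whose values are background, Tbl2, Gtf2h4, H2bc23, Ncaph and Gypc came closest. The arrays share their groups, so likeness over them describes these 9 arrays only.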

How the data were processed

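Total RNA of 9 E0771 samples was copied into labelled cDNA, which was hybridised to Clariom S mouse arrays. The authors used the Transcriptome Analysis Console, and the deposited values are 1 log2 signal per probe set, with the base taken from their range (1.51 to 18.64, array medians 4.875 to 5.04). Neither the normalization algorithm nor the genome build is given in the sources used here. Of 22206 probe sets, 19572 had 1 gene symbol in the platform annotation and 2634 none. Nothing was filtered, and 0 values were missing.

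All 9 arrays entered 1 linear model, with a mean for each group, in limma 3.58.1 under R 4.3.3 (lmFit, eBayes). Two-sided p-values were adjusted by Benjamini-Hochberg over all 22206 probe sets, with a threshold of 0.05. Signal is not a count, so the number of arrays limits the precision (median SE of a log2 change 0.16). Levels of different probe sets were not compared. Lists were counted, not tested.

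The members and lists were chosen with earlier results of these data known. Named were all members, Pcx, up to 3 genes per list with the smallest p against scram, and the 5 genes most like Myc, Mxd1, Txnip and Arrdc4. Genes outside this rule are marked. Alternatives were filters on low probe sets, quantile normalization, centring on the array median or on olfactory receptor probe sets, other variance models, the compared groups alone, a replicate block and leaving out each array. The fit was also run on simulated data with independent arrays and far fewer changed probe sets than were called here. That run does not check the calls of these data. Coordinates are those of RefSeq genes on GRCm38.p6.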

Additional observations from a re-analysis of the deposited data

Results flagged for a closer look

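Among the network members, Pcx and the genes named by rule from the lists, 23 stood out because their response differed between the hairpins by a direct test (limma, adjusted p under 0.05, shPC28 minus shPC25 on the log2 scale). Within the network these were Myc (-0.81), Max (-0.82), Mlxip (-0.48) and Txnip (-1.13), all lower with shPC28 than with shPC25. The hairpins' target Pcx differed by 1.28 and was thus higher with shPC28. Lower with shPC28 were also Mitf (-1.58), Clock (-0.34), Hcfc1 (-1.88), Usp7 (-1.19), Sin3a (-0.54), Dusp2 (-2.23), Hk2 (-2.08), Tfb2m (-1.01), Ndrg2 (-1.01), Elovl6 (-0.77), Arrdc3 (-0.63) and Ddit4 (-1.05). Higher with shPC28 were Usf1 (0.46), Kat5 (0.38), Pim1 (0.54), Sap30 (0.35), Khk (0.90) and Txn2 (0.32). Several of these calls were lost when 1 array was left out: Clock, Sap30 and Arrdc3 (adjusted p up to 0.0959, 0.0783 and 0.0682), Txn2 (up to 0.144), Mlxip (up to 0.111) and Txnip (up to 0.0786). Quantile normalization ended those of Mlxip (adjusted p = 0.359), Ndrg2 (0.0571) and Arrdc3 (0.0527), and olfactory receptor centring those of Kat5 (0.0885), Sap30 (0.114) and Txn2 (0.212). Among genes named outside the rule, Fbxw7 (-1.74, adjusted p = 0.00201), Cad (-1.17, adjusted p = 0.000172), Slc2a1 (-0.64, adjusted p = 0.0115) and Slc2a3 (-0.69, adjusted p = 0.00139) were also lower with shPC28 than with shPC25. With 3 arrays per group, single arrays were not examined for outliers.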

How the results depend on the processing

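Across 18 alternatives, the calls of Mxd1 with both hairpins, of Myc, Max and Txnip with shPC28, and of Myc and Max between the hairpins were kept. The members changed with shPC25 numbered 1 to 3 when single arrays were left out, 1 of them without scram replicate 3 or shPC25 replicate 1. With shPC28 they numbered 5 under quantile normalization, which ended the calls of Mnt, Mxi1 and Mlxip. Between the hairpins they numbered 2 to 5 when single arrays were left out, 2 without shPC25 replicate 3 or shPC28 replicate 3. Changed probe sets with shPC25 numbered 3021 to 4512 in those fits. The replicate numbers showed no positive pairing of the samples. Deviations of same-numbered arrays correlated at -0.18 to -0.14, and those of differently numbered arrays at 0.05 to 0.13. Deviations from a group mean cancel within the group, so negative values for same-numbered arrays bring positive ones for differently numbered arrays. What lies behind the negative values was not tested. A replicate block gave 3073 changed probe sets with shPC25, 8074 with shPC28 and 4552 between the hairpins, against 4541, 9265 and 5829 without it, and ended, among the members, the calls of Myc with shPC25 (adjusted p = 0.103), Mlx with shPC28 (adjusted p = 0.0585) and Mlxip between the hairpins (adjusted p = 0.0831). Among other named genes it ended those of Clock, Sin3b and Arrdc3 with shPC25 (adjusted p = 0.0645, 0.0707 and 0.0539), Mga with shPC28 (0.0749), and Clock, Kat5, Sap30 and Txn2 between the hairpins (0.0801, 0.0503, 0.0684 and 0.115). Of the changed probe sets, 44.9% were higher with shPC25, 50.8% with shPC28 and 44.8% between the hairpins. Median centring, which put the median of all probe sets at 0.14 with shPC25 and 0.20 with shPC28, made this 61.5%, 60.7% and 44.8%. Centring on olfactory receptor probe sets, with medians of -0.03 and -0.10, made it 32%, 31.5% and 26.5%.

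The values that changed sign were small and had not passed the test. Quantile normalization gave Mxd4 0.048 and Mga 0.011 with shPC25, Ndrg2 0.19 and Arrdc3 0.19 with shPC28, and Mnt 0.17 between the hairpins. Median centring gave Arrdc4 0.058, Mga 0.072 and Ndrg1 0.048 with shPC25, and Arrdc4 0.03 and Arrdc3 0.077 with shPC28. Olfactory receptor centring gave Mitf -0.013 and Arrdc1 -0.03 with shPC25, Mxd4 -0.15 with shPC28 and Kat2a -0.077 between the hairpins. With single arrays left out, the ranges with shPC25 were -0.21 to 0.067 for Arrdc4, -0.0717 to 0.0033 for Mga, -0.043 to 0.17 for Mitf and -0.23 to 0.28 for Arrdc1. With shPC28 they were -0.11 to 0.36 for Mxd4, -0.25 to 0.033 for Arrdc4 and -0.13 to 0.11 for Arrdc3, and between the hairpins -0.34 to 0.0067 for Mnt and -0.15 to 0.063 for Arrdc4. The cause was not tested.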
